A study of Mus musculus with 8 samples.

Results

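The mRNAs that encode proteins which act on or with the poly(A) tail were examined in P19 cells, a mouse embryonal carcinoma line. They were 42 genes, chosen by name for products that bind the tail, add it or remove it, or that partner such proteins or act in decapping and repression, and all 42 had at least 1 read among the 13120 genes with a read. Together they held 5865 of 1926010 nuclear-encoded mRNA reads, 0.305%. Undifferentiated P19 cells of wild-type genotype were treated with MHY1485, a small molecule sold as an mTOR activator, at 10 µM for 24 h or 48 h, and control cells received an equal amount of DMSO for the same times. The medium was renewed every 24 h. Each of the 4 groups had 2 libraries, called here by treatment and a number in the deposited table: 21 and 23 at 24 h, 24 and 25 at 48 h. RNA was read directly on nanopores from the 3′ end, so a read gives both the transcript and an estimate of its tail length, and the study asked how mTOR activation moves tail lengths.

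A poly(A) tail is added in the nucleus when the cleavage and polyadenylation complex cuts the nascent RNA downstream of a hexamer signal and a poly(A) polymerase extends the new end. In the cytoplasm the tail is coated by PABPC proteins, which hold the mRNA in a translated state, and is shortened by the PAN2-PAN3 and CCR4-NOT deadenylases, after which the mRNA is decapped. LARP1, a substrate of mTOR signalling, binds the start of mRNAs with a terminal oligopyrimidine (TOP) motif, among them Pabpc1 itself, and their tails.

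The libraries held 178359 to 316531 mRNA reads, of which 480 to 1043 came from the 42 genes. The cell type label matched the markers: all 8 genes of the undifferentiated P19 list were read, Pou5f1 most often with 5098 reads, and the list summed to 3653 to 4009 reads per 1000000 mRNA reads (RPM) in every library. The 5 neuronal markers, with 455 of their 566 reads on Stmn2 and 6 on Map2, summed to 276 to 404 RPM at 24 h, where the groups overlapped, and at 48 h to 328 and 287 in DMSO and 247 and 215 in MHY1485, which did not overlap. The fibroblast list summed to 9.34 to 35.6 RPM. The 5 markers of mesoderm and endoderm, with 166 of their 176 reads on T and Sox17 at 0, summed to 237 and 196 RPM in the 2 libraries numbered 25 and to 16.8 to 70.2 in the other 6. At 24 h this list was at 36.6 and 61.6 RPM in DMSO (7 and 17 reads) and 22.2 and 16.8 in MHY1485 (5 and 3 reads), also without overlap. How often other genes or lists lie apart in this way at a single time was not counted. The part of these markers in the results was not tested. In bulk RNA, fewer cells with a transcript and fewer transcripts per cell cannot be told apart.

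Levels were compared as RPM, with no division by transcript length, because each read came from the 3′ end of 1 RNA molecule. The 7 tail-binding proteins held the most reads of the 8 roles, 1137 RPM over all libraries, followed by the 12 cleavage and polyadenylation factors with 847 and the 10 subunits of CCR4-NOT with 482. The 2 PABPC partners held 296 RPM and the 2 decapping and repression factors 110, while the 2 poly(A) polymerases held 78.9, the 3 other deadenylases 49.3 and the 4 BTG/TOB proteins 45.2. The levels were uneven within each role.

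Pabpc1, the main cytoplasmic tail-binding protein, was the most abundant member with 1390 reads, 23.7% of all reads of the set. Its level was 817 and 718 RPM in the DMSO libraries 21 and 23 and 680 and 594 in the MHY1485 libraries of the same numbers. At 48 h it was 749 and 872 in the DMSO libraries 24 and 25 and 568 and 766 in the MHY1485 libraries. Nudt21, the small subunit of the cleavage factor that reads UGUA elements, followed with 539 reads, Paip2, an inhibitor of PABPC1, with 493 and Pabpc4, a second cytoplasmic PABPC, with 315. These 4 mRNAs made up 46.7% of the reads of the set.

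Between 100 and 299 reads were found for 16 members. They were Cnot1, the scaffold of CCR4-NOT, with 223 reads, Larp1 with 218, Cpsf3, the endonuclease that cuts the pre-mRNA, with 166, and Zc3h14, a zinc finger protein that binds nuclear tails, and Lsm14a, a P-body protein that represses translation, with 156 each. Cpsf6, the large subunit of the NUDT21 cleavage factor, and Cnot8, a deadenylase of CCR4-NOT, had 145 reads each. Papola, the canonical nuclear poly(A) polymerase, had 136, Cnot7, the paralog of Cnot8, 129, Cnot2, a structural subunit, 128 and Cstf1 126. Cpsf2 had 122 reads, Wdr33, which contacts the hexamer signal, 113, Cstf3 106, and Fip1l1, which joins the polymerase to the cleavage complex, and Cnot11 102 each.

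The remaining members with at least 30 reads were Cnot6, the second kind of deadenylase of CCR4-NOT, and Paip1, a PABPC1 partner that stimulates translation, with 78 reads each, Larp4 and Cpsf1 with 74 each, Cstf2, which binds the GU-rich element, with 68, the deadenylase Parn with 65, the helicase Ddx6 with 56, Cnot10 with 47, Cpsf7 with 42, Cnot3 with 41 and the antiproliferative adaptor Btg1 with 35. The other 11 members had 7 to 29 reads each and 197 in all. The nuclear tail-binding protein Pabpn1 was among them with 7 reads, as were Papolg and both subunits of the PAN2-PAN3 deadenylase.

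**Figure D1:**
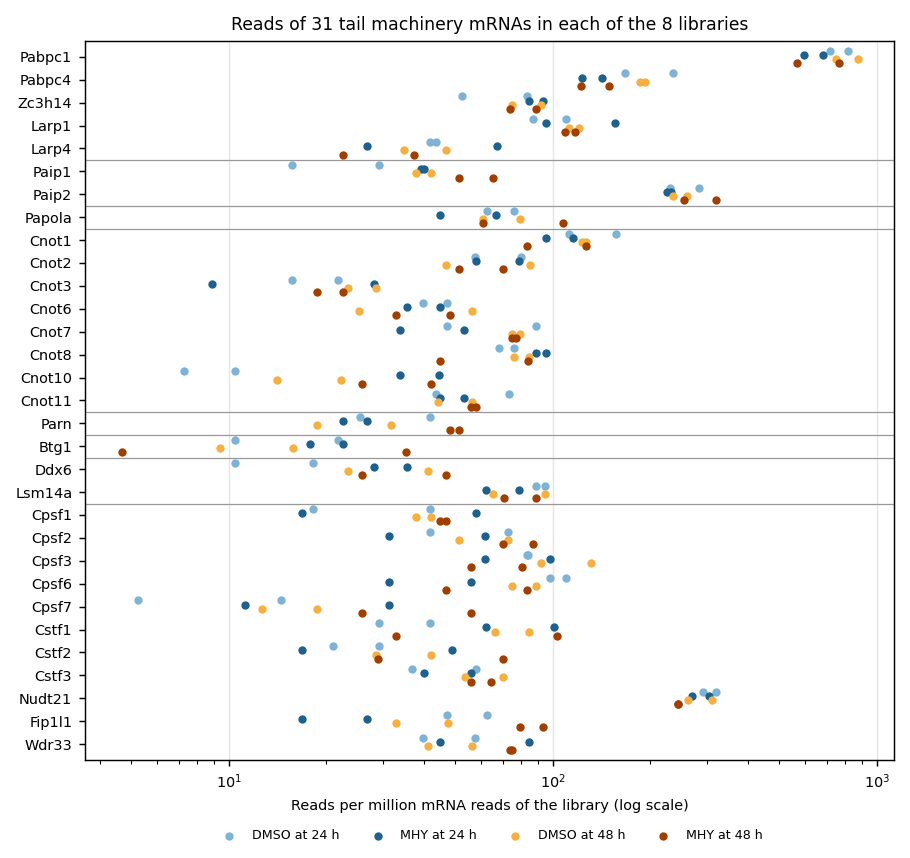
Levels in RPM (log axis) of the 31 members with at least 30 reads, ordered by role with grey lines between roles; each point is 1 library, coloured by group, with 2 libraries per group. Pabpc1 lies highest with 568 to 872 RPM in the 8 libraries.

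The tails of these mRNAs were longer than those of the average mRNA read. Over the pooled reads the mean tail was 114 nt and the median 105 nt, against 106 nt and 98.7 nt for the reads of all other genes. The mean of the set lay above that of the other genes in each library, at 108 to 119 nt against 101 to 109 nt, and no test was made of the set. Tails of 30 to 90 nt, the class centred near 60 nt, made up 36.1% of the reads of the set and 40.6% of the others, and tails under 30 nt 3.27% and 2.92%. In single libraries the share under 30 nt ran from 1.88% (95% Wilson interval 0.990% to 3.52%, 480 reads) in the MHY1485 library 23 to 4.85% (3.63% to 6.45%, 907 reads) in the MHY1485 library 24. These intervals cover counting error only.

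Counted by gene, 23 of the 31 members with at least 30 reads had a mean tail above the median of all 5840 such genes, which was 113 nt. The mean of 12 members lay above the upper quartile of all genes (123 nt) and that of 4 below the lower quartile (104 nt). Across all genes, longer transcripts had longer tails (Spearman rho = 0.45 over the 5773 genes with a known length) and abundant ones shorter tails (rho = -0.36 over 5840 genes). Among the 31 members the same coefficients were 0.32 and -0.26. They are given as a description over genes that share 8 libraries.

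By role, the mean tail over pooled reads ran from 105 nt for the tail-binding proteins and 108 nt for the PABPC partners to 145 nt for the poly(A) polymerases, with 115 nt for the cleavage factors, 123 nt for CCR4-NOT, 130 nt for the decapping and repression factors, 131 nt for the other deadenylases and 136 nt for the BTG/TOB family. No test was made between roles. The 4 members below the lower quartile were Pabpc1 (mean 99.7 nt, median 92.1 nt), Cnot3 (101 nt and 98.3 nt), Zc3h14 (102 nt and 95.4 nt) and Paip2 (103 nt and 94.4 nt). Nudt21 (106 nt), Cnot11 (109 nt), Cstf3 (110 nt) and Pabpc4 (112 nt) followed, all 4 below the median gene. Tails under 30 nt made up 4.66% of the reads of the 7 tail-binding mRNAs and 0.658% of those of the 2 poly(A) polymerases.

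The longest mean tails belonged to Papola (144 nt, at the 96.4th percentile of all genes), Ddx6 (140 nt), Paip1 (136 nt), Cnot6 (135 nt), Cnot1 (135 nt) and Larp4 (133 nt). Of the reads of Ddx6, 87.5% had tails above 90 nt, against 52.1% of those of Pabpc1. Between these ends lay Cpsf7 (128 nt), Lsm14a (126 nt), Btg1 and Cpsf3 (125 nt each), Cnot8 and Cpsf1 (124 nt each) and Cnot7 (123 nt). Larp1, Cpsf2, Cpsf6, Cstf2 and Fip1l1 each had a mean of 120 nt, Cnot2 of 119 nt, Cstf1 of 118 nt, Parn of 117 nt, Wdr33 of 116 nt and Cnot10 of 114 nt.

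**Figure D2:**
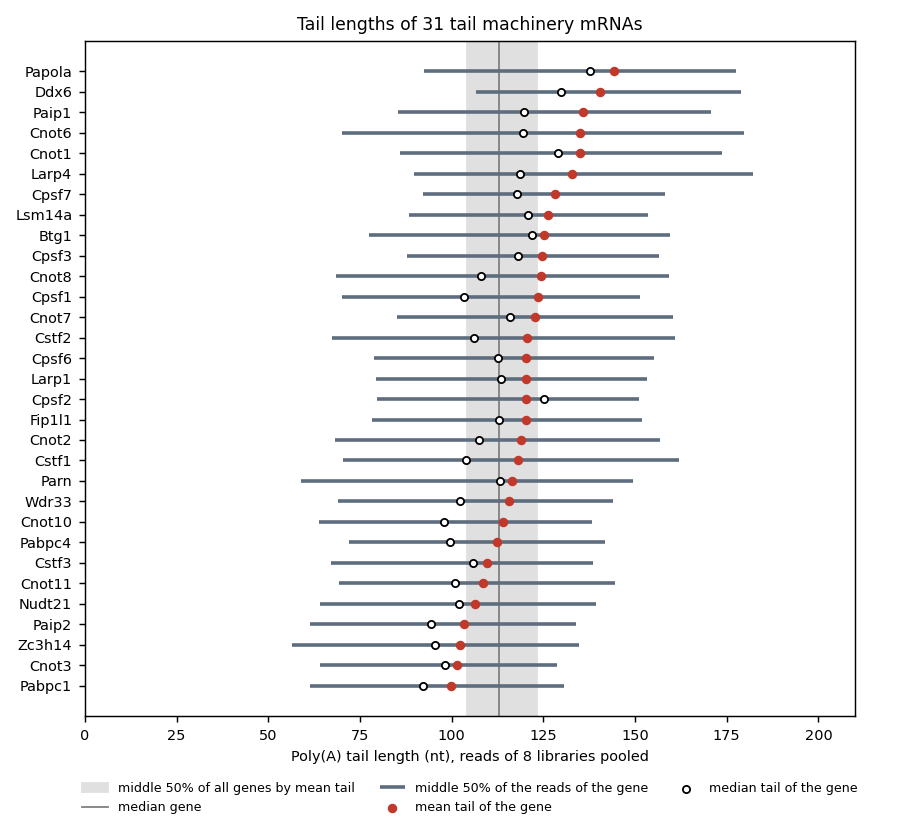
Poly(A) tail length in nt of the 31 members with at least 30 reads, all 8 libraries pooled, ordered by mean; filled points are means, open points medians, horizontal lines the middle 50% of the reads of a gene, and the grey band the middle 50% of the means of all 5840 genes with at least 30 reads. Pabpc1 lies lowest at 99.7 nt and Papola highest at 144 nt, while the reads of each gene spread widely around these means.

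Whether a gene differed from its libraries was tested for the 11 members with at least 10 reads in every library, in 1 exact two-sided sign-flip permutation test per gene over the 8 libraries, with the adjustment over all 1949 genes of that depth. The average over genes was the unweighted mean of those 1949 genes, 103 to 111 nt per library and 109 nt over the 8 libraries. It is not the median gene used above, which included genes with fewer reads. Pabpc1 tails differed from the average over genes of the same library by -8.67 ± 3.11 nt (SD, n = 8) and were shorter in 8 of 8 libraries (exact p = 0.0078, the smallest it can give, adjusted p = 0.028). Cnot1 tails were longer by 25.8 ± 10.6 nt in 8 of 8 libraries (exact p = 0.0078, adjusted p = 0.028), and Larp1 tails by 10.9 ± 8.06 nt in 7 of 8 (exact p = 0.016, adjusted p = 0.043). Thus 2 of 11 members were called longer and 1 of 11 shorter, beside 14% and 22.6% of all genes tested, so the counts themselves were near the background.

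The difference missed the threshold for Cpsf3 (19.6 ± 17.1 nt longer), Lsm14a (17.6 ± 13.1 nt longer) and Cnot8 (16.1 ± 15 nt longer), each in 7 of 8 libraries (exact permutation test, adjusted p = 0.058). For the other 5 the adjusted p ran from 0.189 to 0.699. The differences were 12.4 ± 21.9 nt for Cnot2, 4.13 ± 11.8 nt for Pabpc4, -1.25 ± 6.05 nt for Nudt21, -5.47 ± 8.02 nt for Paip2 and -6.54 ± 13 nt for Zc3h14, each smaller than its SD over the libraries.

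Most reads of the set, 5537, lay on transcripts annotated as protein coding, with a mean tail of 113 nt. Another 217 lay on transcripts annotated as targets of nonsense-mediated decay, with a mean tail of 137 nt, and 109 of them were Papola reads. Retained-intron transcripts held 80 reads of 17 genes (mean tail 125 nt). The reads of Larp1 could not be assigned to 1 of its 2 transcripts: none of its 218 reads reached a mapping quality of 10. The same quality was reached by 5.38% of Cnot1 reads and 1.79% of Ddx6 reads.

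The last aligned base of a read marks the 3′ end of its mRNA before the tail. Read ends were placed on the mm10 genome through the exons of the transcripts, ends at most 30 nt apart were joined, and a site was kept with at least 10 reads and 5% of the reads of the gene. The 31 members had 61 sites. More than 1 site was found for 19 of 31 members, 61.3%, against 29.5% of the other 5754 genes with at least 30 reads. With 100 to 299 reads it was 14 of 16 members, beside 39.0% of 1586 other genes. With 30 to 99 reads it was 4 of 11 members (25.1% of 3246 other genes), and above 299 reads 1 of 4 (28.5% of 922). The genes were picked by function and no test was made of these shares. Of the reads of the set, 32.0% ended more than 500 nt before the annotated end of their transcript, against 20.2% of other reads.

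Among the cleavage factors, Nudt21 used 1 site, 278 nt after its stop codon and 3909 nt before the annotated transcript end, for 518 of 539 reads. Cpsf6 was spread over 5 sites from 164 to 4796 nt after the stop codon, of which the second held 53 of 145 reads and the most distal 13. Cpsf2 had 3 sites at 765, 1060 and 2308 nt, with 76 of 122 reads at the first. Fip1l1 ended 167 nt after its stop codon in 73 of 102 reads and 2804 nt after it in 13. Cstf1 ended at 462 nt in 100 of 126 reads and at 1815 nt in 23, and Cstf2 at 221 nt in 25 of 68 reads and at 2591 nt in 36. By contrast, Cpsf1, Cpsf3 and Cpsf7 each had a single site that held all their reads.

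Among the tail-binding mRNAs, Pabpc1 (1340 of 1390 reads, 439 nt after the stop codon), Pabpc4 (314 of 315, 322 nt) and Larp1 (203 of 218, 3269 nt) ended at 1 site each, close to the annotated end. Zc3h14 had its largest site at 267 nt with 90 of 156 reads and a distal site at 1172 nt with 53. Larp4 had 21 of 74 reads at 2174 nt and 49 at 4184 nt. Of the PABPC partners, Paip2 had 3 sites at 173, 292 and 931 nt with 123, 78 and 291 of its 493 reads, and Paip1 3 sites with 14, 42 and 19 of 78.

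In CCR4-NOT, Cnot1 ended 251 nt after its stop codon in 205 of 223 reads, Cnot11 at 116 nt in 74 of 102, Cnot6 at 1697 nt in 50 of 78 and Cnot8 at 259 nt in 39 of 145 and at 1006 nt in 106. Cnot2 had 3 sites, the most distal with 81 of 128 reads, and Lsm14a 4. In Papola, Paip1, Cnot1, Cnot2, Cnot7, Cstf3 and Wdr33 each site lay on a different annotated transcript, as did the first site of Zc3h14 against its other sites. Wdr33 divided its reads evenly, with 47 of 113 at each of 2 sites.

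**Figure D3:**
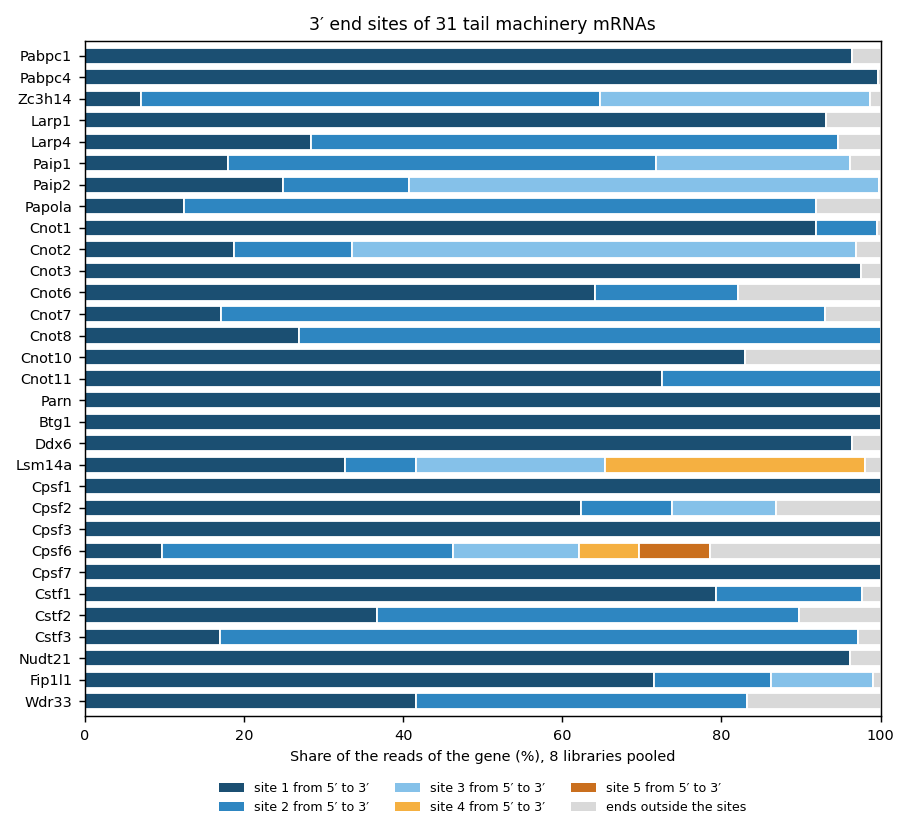
Share in percent of the reads of each of 31 members at each 3′ end site, 8 libraries pooled; sites are coloured in order from 5′ to 3′ and grey marks ends outside any site. Pabpc1, Pabpc4, Larp1 and Nudt21 are dominated by 1 site, and Cpsf6 is divided among 5.

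The 30 transcript bases that lead up to the most frequent end of a site are shown for 4 members with a proximal and a distal site, and for the single sites of Pabpc1, Larp1 and Nudt21, because the hexamer they hold is what the machinery itself reads. They are from the GENCODE transcripts on mm10, written 5′ to 3′ on the strand of the gene, with the hexamer AATAAA, or ATTAAA where AATAAA was not present, in capitals. Only the sense strand was searched, AATAAA was looked for first, and the match nearest to the end was marked.
Pabpc1, chr15:36595661-36595690, minus strand: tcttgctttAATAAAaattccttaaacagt
Larp1, chr11:58062005-58062034, plus strand: gtataaaAATAAAaacttgaaaaggcaaaa
Nudt21, chr8:94019405-94019434, minus strand: aagtttctcATTAAActctgaaaagtctta
Zc3h14 at 267 nt, chr12:98786819-98786848, plus strand: ttctATTAAAacatttgcggcatgtttgta
Zc3h14 at 1172 nt, chr12:98787724-98787753, plus strand: ttaagatacAATAAAgtcacatctataaaa
Cnot8 at 259 nt, chr11:58117818-58117847, plus strand: aacaaaccagtaaaatgtctatgactctta
Cnot8 at 1006 nt, chr11:58118565-58118594, plus strand: ttgtaaAATAAAgattgctttttaaccatt
Cstf1 at 462 nt, chr2:172381052-172381081, plus strand: ttgtcctggtAATAAAgctcagatctacaa
Cstf1 at 1815 nt, chr2:172382405-172382434, plus strand: ttaaagatgtgatttctaaAATAAAttttt
Fip1l1 at 167 nt, chr5:74596124-74596153, plus strand: agtgtgcatttttttgtgttaagttaaaaa
Fip1l1 at 2804 nt, chr5:74598761-74598790, plus strand: atcAATAAAaatgatcttgtgaaatattaa
All 11 windows lie in 3′ UTR exons.

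AATAAA was found in 42 of the 61 windows, 68.9%, and ATTAAA in another 9, while 10 held neither. Over 5763 genes with at least 30 reads, the window before the most frequent end held AATAAA in 66.1% and ATTAAA alone in 14.9%. The proximal sites of Cnot8 and Fip1l1, shown above, were among the 10 windows with neither, and the single used site of Nudt21 held ATTAAA. A match is a description of these letters and no match says only that they are not in this window. In the 38 sites with more transcript sequence beyond the end, the next 10 bases held a median of 2 and at most 5 A.

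Tails were compared between the most distal site of a gene and its earlier sites. The mean tail was longer at the distal site in 14 of 19 members with more than 1 site, with a median difference of 11.2 nt, and in 66.7% of the 1695 other genes with more than 1 site, with a median difference of 8.52 nt. Cnot6 had 121 nt at the earlier site (50 reads) and 191 nt at the distal one (14 reads), Cpsf6 107 nt (101 reads) and 177 nt (13 reads) and Cnot8 98.0 nt (39 reads) and 134 nt (106 reads). Zc3h14 went the other way, with 111 nt at the earlier sites (101 reads) and 87.2 nt at the distal site (53 reads).

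Both kinds of site had reads in all 8 libraries for 9 members, and these were tested with the exact two-sided sign-flip permutation test over libraries, adjusted over 853 genes. None passed in either direction (0% and 0% of all genes tested were called longer or shorter). The smallest exact p over 8 libraries, 0.0078, passes at its own rank only where at least 134 of the 853 genes hold it, and 63 did, so the absence of calls says little about the members. At an unadjusted exact p under 0.05, 3 of 9 members had longer distal tails (16.5% of all genes) and 1 of 9 shorter ones (1.64%). These were Wdr33 (20.2 ± 22.3 nt longer, in 7 of 8 libraries, exact p = 0.016, adjusted p = 0.145), Cnot8 (37.4 ± 39.4 nt longer, 7 of 8, exact p = 0.039, adjusted p = 0.233), Cnot2 (15 ± 15.7 nt longer, 6 of 8, exact p = 0.047, adjusted p = 0.258) and Zc3h14 (-20.5 ± 17.2 nt, shorter at the distal site in 7 of 8, exact p = 0.023, adjusted p = 0.182). Paip2, with the most reads, was 11.8 ± 14.9 nt longer at the distal site in 7 of 8 libraries (exact p = 0.070, adjusted p = 0.297).

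**Figure D4:**
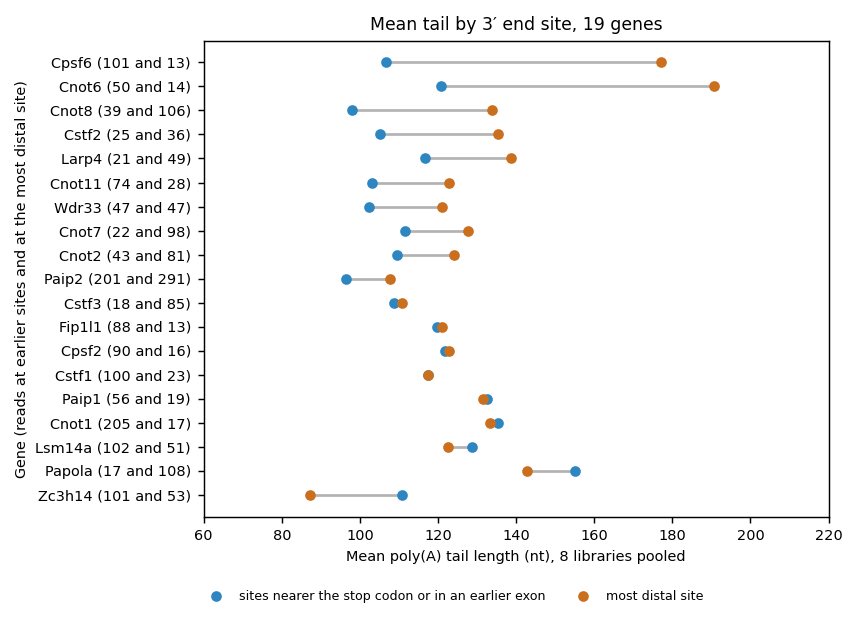
Mean poly(A) tail length in nt at the earlier 3′ end sites (blue) and the most distal site (orange) of the 19 members with more than 1 site, 8 libraries pooled, with the reads behind both means in brackets. The distal mean lies to the right in 14 of 19 genes, and Zc3h14 at the bottom shows the opposite order, 111 nt against 87.2 nt.

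The share of reads at the distal site of Paip2 was 59.1% and 56.4% in the DMSO libraries and 51.0% and 50% in the MHY1485 libraries at 24 h. At 48 h it was 68.0% and 63.4% in DMSO and 59.5% and 61.8% in MHY1485. The distal share was thus lower in MHY1485 without overlap at 24 h and at 48 h, with 40 to 82 reads behind each share. Paip2, named after its values were seen, was 1 of 19 members with this order at both times, beside 2.96% of the 1658 genes with more than 1 site and a read at a site in every library. The opposite order at both times was found for 0 of 19 members and 2.71% of these genes. Cnot8 had the opposite order at 24 h alone, with 61.5% and 61.9% in DMSO and 75% and 70.6% in MHY1485. At 48 h its lower MHY1485 library equalled its higher DMSO library, at 77.8%. Lsm14a and Cpsf2 were also higher in MHY1485 without overlap at 24 h, while Paip1 and Fip1l1 were lower. The share of all genes with such an order at a single time was not counted. No test was made of the distal shares.

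The first question of the design was whether MHY1485 changed the levels of these mRNAs. Of the 42 members, 27 passed the filter of at least 10 reads in 2 or more libraries, among 4115 genes tested with limma voom. None of the 27 was called at an adjusted p under 0.05 at 24 h, where 0.0729% of all genes were called, nor at 48 h, where 1.58% were. At an unadjusted p under 0.05, limma named 3 members at 24 h (4.37% of all genes) and 4 at 48 h (12%). The median log2 fold change of the 27 members was -0.11 at 24 h and -0.11 at 48 h, against 0.01 and 0.04 over all genes. The tested members with a positive value were 9 of 27 at 24 h and 11 of 27 at 48 h, beside 51.2% and 54.7% of all genes.

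Pabpc4 was the tested member whose MHY1485 libraries lay below the DMSO libraries without overlap at both times. It had 236 and 167 RPM in the DMSO libraries and 142 and 123 in the MHY1485 libraries at 24 h, a log2 fold change of -0.53 (SE 0.26, limma adjusted p = 0.972). In the 48 h libraries it had 192 and 186 RPM in DMSO and 122 and 149 in MHY1485, a log2 fold change of -0.56 (SE 0.24, limma adjusted p = 0.289). Pabpc1 showed the same order at 24 h, with the values given above, at a log2 fold change of -0.26 (SE 0.16, limma adjusted p = 0.972). At 48 h its libraries overlapped and the log2 fold change was -0.38 (SE 0.15, limma adjusted p = 0.229). Without the MHY1485 library 25, which leaves 1 MHY1485 library at 48 h that is assumed to vary like the other groups, the Pabpc1 log2 fold change was -0.59 (limma adjusted p = 0.022), 1 of 25 members called beside 138 of 4030 genes. Leaving out any 1 of the other 7 libraries called no member for reads at 48 h, beside 15 to 59 genes in all (limma).

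Larp1 had 110 and 87.0 RPM in DMSO and 156 and 95.3 in MHY1485 at 24 h (log2 fold change 0.37, SE 0.31, limma adjusted p = 0.996). At 48 h it had 112 and 120 in DMSO and 109 and 117 in MHY1485 (log2 fold change -0.11, SE 0.28, limma adjusted p = 0.921). The groups overlapped at both times.

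At each time the member with the lowest p for read counts was a cleavage factor, Cpsf6 at 24 h and Fip1l1 at 48 h. Cpsf6 had 110 and 97.9 RPM in DMSO and 31.1 and 56.1 in MHY1485 at 24 h, a log2 fold change of -1.32 (SE 0.42, limma adjusted p = 0.525), from 7 to 27 reads per library. The 48 h values were 74.9 and 88.5 in DMSO and 83.5 and 46.7 in MHY1485, which overlapped. Cstf1 was higher at 24 h, with 41.9 and 29.0 in DMSO and 62.2 and 101 in MHY1485 (log2 fold change 1.16, SE 0.45, limma adjusted p = 0.972). At 48 h its DMSO libraries, at 84.2 and 66.3, lay between the MHY1485 libraries, at 103 and 32.7.

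Fip1l1 had 62.8 and 47.1 RPM in DMSO and 26.7 and 16.8 in MHY1485 at 24 h (log2 fold change -1.16, SE 0.65, limma adjusted p = 0.972). At 48 h the order was the opposite, with 32.8 and 47.4 in DMSO and 93.1 and 79.4 in MHY1485 (log2 fold change 1.00, SE 0.39, limma adjusted p = 0.216). The groups did not overlap at either time. Tob2, with 13 reads, was also apart in opposite orders, higher in MHY1485 at 24 h and lower at 48 h. The share of all genes apart in reads at a single time, or in opposite orders, was not counted. Cpsf3 had 131 and 91.6 in DMSO and 80.2 and 56.1 in MHY1485 at 48 h (log2 fold change -0.66, SE 0.32, limma adjusted p = 0.370), and at 24 h its 2 MHY1485 libraries, at 97.8 and 61.7, lay on both sides of the DMSO libraries, at 83.8 and 83.4.

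The change of the effect between the times was tested in the same limma fit. None of the 27 members was called (0.316% of all genes were), and 2 had an unadjusted p under 0.05 (6.73% of all genes): Fip1l1, whose effect differed by 2.16 on the log2 scale (SE 0.76, limma adjusted p = 0.374), and Cstf1, by -1.38 (SE 0.57, limma adjusted p = 0.551). Between 48 h and 24 h over both treatments, which were sequenced in different runs so that time and run cannot be told apart, no member was called (0.705% of all genes) and none had an unadjusted p under 0.05 (8.68%), the lowest limma adjusted p being 0.598. The mean of the effects at both times, a contrast chosen after the values were seen, called none of the 27 (1.29% of all genes) and gave an unadjusted p under 0.05 for 3 (9.82%): Cpsf6 (-0.84, SE 0.27, limma adjusted p = 0.099), Pabpc4 (-0.54, SE 0.18, limma adjusted p = 0.114) and Pabpc1 (-0.32, SE 0.11, limma adjusted p = 0.142).

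Over the 41 members with at least 10 reads, both MHY1485 libraries lay below both DMSO libraries at both times for 1, Pabpc4 (2.28% of 8856 genes), and above them for 3 (4.75%). The 3 were Paip1, Cnot6l and Cnot10, named after their values were seen. Cnot10 had 10.5 and 7.25 RPM in DMSO and 44.5 and 33.6 in MHY1485 at 24 h, and 14.0 and 22.1 against 25.7 and 42 at 48 h, from 2 to 10 reads per library. It did not pass the filter for the test.

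**Figure D5:**
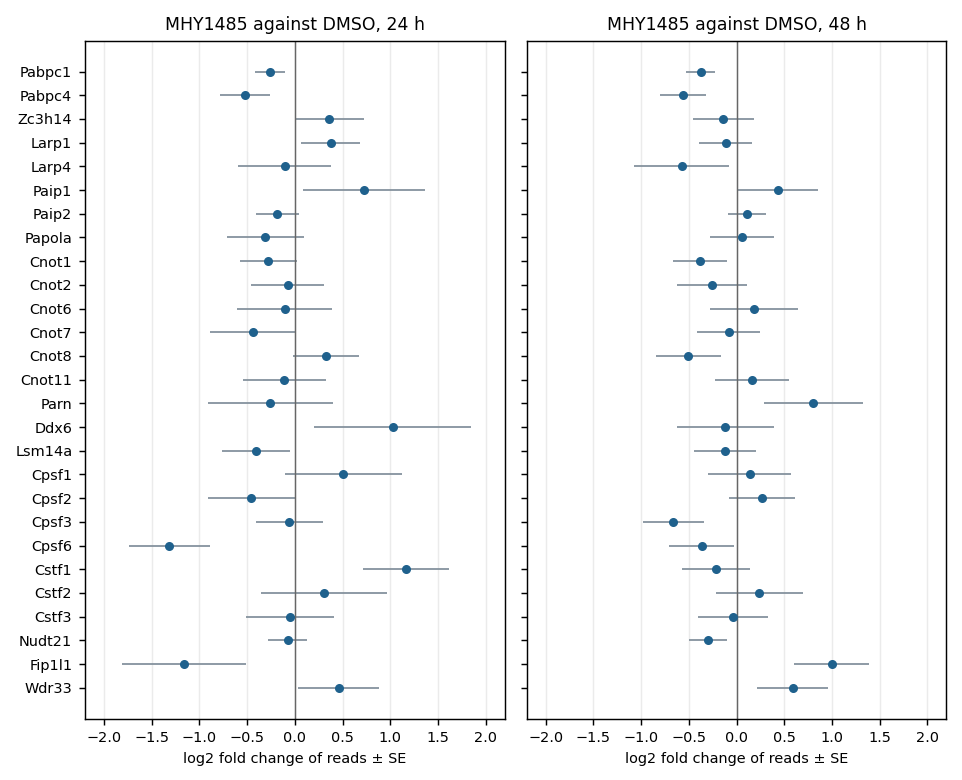
Log2 fold change of reads with its SE (bars) for MHY1485 against DMSO at 24 h and 48 h, for the 27 members tested with limma voom on 8 libraries. Pabpc1 and Pabpc4 lie left of 0 at both times, Fip1l1 lies at -1.16 and 1.00, and no member passed the adjusted threshold.

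The second question was whether the tails of these mRNAs changed. It could be tested for the 11 members with at least 10 reads in every library, among 1949 genes. For the mean tail, limma called no member at 24 h (0% of all genes were called) or at 48 h (0.0513%). At an unadjusted p under 0.05 there was 1 member at 24 h (3.9% of all genes) and none at 48 h (8.62%). The median difference over the 11 members was 1.88 nt at 24 h and -4.55 nt at 48 h, against -0.42 nt and -3.25 nt over all genes. No member was called for the change between the times (0% of all genes, and at an unadjusted p under 0.05 0 members and 4.77% of all genes, limma) or for 48 h against 24 h (0%, and 0 members and 11.5%, limma).

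Zc3h14 was the member with the lowest p for the mean tail at 24 h. Its mean tail was 98.3 and 133 nt in the DMSO libraries and 88.3 and 100 nt in the MHY1485 libraries at 24 h, a read-weighted difference of -29.4 nt (SE 13.7, limma adjusted p = 0.999). The groups overlapped. Cnot2 had 92.7 and 114 nt in DMSO and 122 and 133 nt in MHY1485 at 24 h (difference 20.8 nt, SE 15, limma adjusted p = 0.999). At 48 h its DMSO libraries had 167 and 115 nt and its MHY1485 libraries 115 and 109 nt (difference -17.1 nt, SE 14.1, limma adjusted p = 0.810). The Cnot2 libraries did not overlap at either time, though at 48 h the nearest pair lay at 115.3 and 114.8 nt, and the order was opposite, as for 1 of 11 members and 5.44% of 1949 genes. Mean tails were shorter in MHY1485 without overlap at both times for 0 of 11 members and 5.85% of genes, and longer for 0 of 11 and 1.64%. Cnot8 had 138 and 95.8 nt in DMSO and 125 and 134 nt in MHY1485 at 24 h (difference 17.3 nt, SE 14, limma adjusted p = 0.999).

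Lsm14a had 133 and 135 nt in DMSO and 118 and 107 nt in MHY1485 at 48 h, with no overlap (difference -21.7 nt, SE 12.3, limma adjusted p = 0.631). Cpsf3 had 113 and 133 nt in DMSO and 96.1 and 140 nt in MHY1485 at 48 h (difference -12.6 nt, SE 13.2, limma adjusted p = 0.861). The Cpsf3 groups overlapped, and the sign turned when the MHY1485 library 24 was left out. The Pabpc1 tail, the most precisely measured, was 97.4 and 105 nt in DMSO and 100 and 108 nt in MHY1485 at 24 h, a difference of 1.88 nt (SE 4.48, limma adjusted p = 0.999). After 48 h it was 98.9 and 100 nt in DMSO and 95.5 and 94.9 nt in MHY1485, a difference of -4.55 nt (SE 3.96, limma adjusted p = 0.826). The Pabpc1 groups overlapped at 24 h and not at 48 h. For an order without overlap at a single time, as in Pabpc1 and Lsm14a, the share of all genes was not counted. Over all genes, 36.0% of the differences at 48 h were above 0.

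The Larp1 tail was 131 and 124 nt in DMSO and 121 and 106 nt in MHY1485 at 24 h (difference -11.0 nt, SE 11.5, limma adjusted p = 0.999). At 48 h it was 117 and 127 nt in DMSO and 117 and 113 nt in MHY1485 (difference -7.74 nt, SE 10.3, limma adjusted p = 0.907). The share of Larp1 reads with tails of 30 to 90 nt was 19% and 16.7% in DMSO and 25.7% and 29.4% in MHY1485 at 24 h, and 29.2% and 26.3% against 35.3% and 44.0% at 48 h. The MHY1485 libraries were higher at both times, an order shown by 1 of the 11 members and by 3.75% of 1949 genes (0 of 11 and 2.67% were lower at both times), from 4 to 12 reads of that class per library, and neither difference in log2 odds passed the test (0.70, SE 0.62, limma adjusted p = 0.987 and 0.73, SE 0.56, limma adjusted p = 0.934).

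For the share of tails of 30 to 90 nt, limma called no member at 24 h or 48 h (0% and 0% of all genes). At an unadjusted p under 0.05 there was no member at 24 h (4.82% of all genes) and 1 at 48 h (6.16%). This was Pabpc4, with 46.3% and 47.5% of its reads in the class in DMSO and 36.8% and 18.8% in MHY1485 at 48 h (log2 odds -1.17, SE 0.48, limma adjusted p = 0.733). At 24 h its shares were 46.7% and 32.6% in DMSO and 56.2% and 27.3% in MHY1485. Pabpc4 was also the 1 member with an unadjusted p under 0.05 for the change between the times (4% of all genes), with no member called there (0%) or for 48 h against 24 h (0.154%, and 0 members and 8.57% of all genes unadjusted, limma).

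For the share of tails under 30 nt, limma called no member at 24 h (0.0513% of all genes), at 48 h (0.308%), for the change between the times (0.0513%) or for 48 h against 24 h (0.205%). No member had an unadjusted p under 0.05 in any of these 4 limma contrasts, beside 4.77%, 11%, 8.06% and 8.11% of all genes. The class held 2 to 15 reads of Pabpc1 per library, 1.89% to 8.47% of its reads.

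As a set, the members held 0.304% ± 0.016 (SD, n = 2) of the reads in DMSO and 0.283% ± 0.020 in MHY1485 at 24 h, and 0.318% ± 0.017 and 0.310% ± 0.026 at 48 h. The mean tail of their reads was 115 ± 1.23 nt and 117 ± 2.50 nt at 24 h, and 115 ± 0.46 nt and 110 ± 3.22 nt at 48 h. The reads of all other genes had a mean tail of 109 ± 0.82 nt in DMSO and 108 ± 0.06 nt in MHY1485 at 24 h, and 106 ± 1.18 nt and 103 ± 2.78 nt at 48 h. Tails of 30 to 90 nt made up 35.5% ± 0.98 and 34.4% ± 1.84 of the reads of the set at 24 h and 36.2% ± 0.07 and 37.5% ± 2.59 at 48 h, and of the other reads 38.7% ± 1.16 and 39.6% ± 0.72 at 24 h and 41.3% ± 1.17 and 42.2% ± 2.24 at 48 h. Tails under 30 nt made up 2.92% ± 0.60 and 2.28% ± 0.58 at 24 h and 3.55% ± 0.82 and 3.92% ± 1.32 at 48 h, and of the other reads 2.53% ± 0.27 and 2.2% ± 0.05 at 24 h and 2.72% ± 0.21 and 3.92% ± 0.77 at 48 h. No p is given for the set. Within the 3 sequencing runs at 24 h the difference in mean tail was 1.37, 4.89 and 0.196 nt and that in the share of 30 to 90 nt 2.36, -4.55 and -1.88 percentage points. Within the 2 runs at 48 h the difference in mean tail was -5.97 and -2.86 nt and that in the same share 2.92 and 0.202 percentage points.

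By role, the mean tail of CCR4-NOT reads was 122 ± 2.55 nt in DMSO and 129 ± 2.33 nt in MHY1485 at 24 h, and 127 ± 0.47 nt and 116 ± 1.84 nt at 48 h (SD, n = 2), in opposite directions. The decapping and repression factors had 135 ± 5.14 nt and 125 ± 28.6 nt at 24 h and 138 ± 7.51 nt and 118 ± 4.31 nt at 48 h. The poly(A) polymerases, from 28 to 48 reads per group, had 140 ± 13.9 nt and 177 ± 29 nt at 24 h and 139 ± 34.1 nt and 136 ± 4.57 nt at 48 h. Among the roles with more reads, the tail-binding mRNAs had 107 ± 4.34 nt and 107 ± 5.4 nt at 24 h and 105 ± 0.62 nt and 102 ± 2.43 nt at 48 h, and the cleavage factors 120 ± 3.98 nt and 117 ± 1.62 nt at 24 h and 118 ± 6.65 nt and 111 ± 4.9 nt at 48 h. The PABPC partners had 104 ± 7.51 nt and 113 ± 3.49 nt at 24 h and 102 ± 13.3 nt and 111 ± 12.4 nt at 48 h. The BTG/TOB family had 122 ± 20.8 nt and 162 ± 35.6 nt at 24 h and 137 ± 8.58 nt and 144 ± 27.3 nt at 48 h, and the other deadenylases 146 ± 14.8 nt and 138 ± 16.3 nt at 24 h and 140 ± 37 nt and 124 ± 10.6 nt at 48 h, both from 16 to 34 reads per group. No test was made by role.

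The tail-binding mRNAs summed to 1199 ± 126 RPM in DMSO and 1053 ± 94.3 in MHY1485 at 24 h and to 1256 ± 95.4 and 1045 ± 193 at 48 h, with Pabpc1 and Pabpc4 as the largest parts. The cleavage factors summed to 818 ± 28.3 and 781 ± 65.3 at 24 h and to 867 ± 11.3 and 894 ± 75 at 48 h, within the spread between libraries.

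Of 49 other genes of tail metabolism (other nucleotidyltransferases, deadenylases, decapping and exonuclease factors, and mRNA-binding adaptors), 21 were tested for reads and 5 for tails, and limma called none for any of the 4 measures in the 4 contrasts. At an unadjusted p under 0.05 there were 0 at 24 h and 1 at 48 h for reads, which was lower in MHY1485. For tails there was 1 longer and 1 shorter mean for 48 h against 24 h and 1 lower share of 30 to 90 nt for the change between the times. Their median log2 fold change was 0.10 at 24 h and 0.17 at 48 h.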

How the data were processed

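Direct RNA libraries of P19 cells (2 per group, 8 in all) had been multiplexed by barcode and sequenced on nanopores, 3 runs at 24 h and 2 at 48 h. According to the methods, Guppy base calls were mapped by the authors to mm10 GENCODE transcripts (minimap2, 2.20), tail lengths came from Nanopolish, and Deeplexicon separated the barcodes. The deposited table has 1 row per alignment with the tail length in nt (another unit), the barcode confidence as a fraction and the mapping quality as a score, in 2439710 rows. The deposited rows were not filtered on the Nanopolish tag. Rows tagged PASS were kept here, 2027638 (83.1%). Of these the mRNA class was kept, mitochondrial (66955) and pseudogene (12169) rows were set aside, and each read was counted once per gene, which left 178359 to 316531 reads per library. Which replicate of the labels each library number stands for was not given in the sources used here. The table has no counts column, and reads were counted here.

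Read counts were scaled by median-of-ratios size factors and tested with limma 3.58.1 (voom, R 4.3.3). Mean tails, and log2 odds of tail classes (0.5 reads added per side), were tested with limma weighted by reads. All contrasts of a measure came from 1 fit of 8 libraries with no block, for genes with at least 10 reads in 2 libraries (reads) or in every library (tails), adjusted by Benjamini-Hochberg over all genes tested. Gene against library and distal against proximal tails used exact sign-flip tests. Transcript ends, exons and sequences came from GENCODE vM21 on mm10, and all 5865 reads of the members had a transcript there. Both kinds of test were tested on simulated data. Replicates are said to be biological in the methods. The limma p-values for tails rest on the spread between 2 libraries per group, pooled over the 4 groups and moderated over genes. For reads, limma drew the spread from all genes together, so those p-values do not measure the spread of a single gene. The exact p-values rest on the spread over the 8 libraries.

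The members, the 49 other genes and the markers were chosen with earlier results of these data known. The rule for named genes gave full values to any member called, to the 4 members with the lowest unadjusted p in each MHY1485 contrast for reads and mean tail, and to Pabpc1 and Larp1. Members with 30 or more reads were named with reads and tail, and those below by count. The 3′ end analysis and the mean of both effects were added after seeing the data. Alternatives are in the closing section. The authors' table holds no comparison columns.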

Additional observations from a re-analysis of the deposited data

How the results depend on the processing

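Apart from leaving out libraries, the number of members called stayed at 0 in the limma tests that each alternative covered. All 16 tests were run with a mapping quality of at least 10, where members tested fell from 27 to 18 for reads and from 11 to 5 for tails (Larp1 and Cnot1 were not among them), and with a barcode confidence of at least 0.9, where they fell from 11 to 8 for tails. Total-read scaling, limma-trend, counting per transcript and other count filters bore on reads alone, other tail summaries, class bounds and read minimums, no weights and no variance trend on tails alone, and the time point alone on the MHY1485 contrasts. Leaving out 1 library gave 0 to 1 for reads at 48 h (Pabpc1, -0.59, without the MHY1485 library 25, with 1 library left in that group and its spread taken from the others). With the shared library number as a replicate block the count of members called was 0 in each contrast, and the set values are the same by construction. Over all genes the block moved the calls for MHY1485 at 48 h from 65 to 81 for reads, from 1 to 24 for mean tails, from 0 to 4 for the share of 30 to 90 nt and from 6 to 14 for tails under 30 nt, those at 24 h from 3 to 1, 0 to 1, 0 to 4 and 1 to 2, and those for 48 h against 24 h from 29 to 51, 0 to 62, 3 to 39 and 4 to 18. For the difference of the effects they went from 13 to 11, 0 to 0, 0 to 0 and 1 to 9. No library number was shared between the times, so the block compares nothing within a number for 48 h against 24 h. Over the other alternatives, the calls for MHY1485 at 48 h ranged from 15 to 138 for reads and from 0 to 23 for mean tails, so the shares of all genes printed beside the members' counts depend on the setting. Same-numbered libraries deviated together with correlations of 0.018 (24 h) and 0.139 (48 h) for reads over 1949 genes. Counting noise lowers such correlations, so they cannot decide whether equal numbers mark pairs. The mesoderm and endoderm list was high in both libraries numbered 25. The main fits used no pairs. Signs turned when 1 library was left out for Larp1 reads at 24 h (range -0.00015, without the MHY1485 library 21, to 0.675), for the mean tail at 24 h of Cnot8 (-8.84, without the DMSO library 23, to 33.4 nt) and of Pabpc1 (-1.33, without the DMSO library 21, to 6.24 nt, and -1.13 nt without the MHY1485 library 23), and for that of Cpsf3 at 48 h (-26.8 to 17.1 nt, the latter without the MHY1485 library 24). Set values that moved by more than the spread between replicates were the mean tail at 24 h within 2 of the 3 sequencing runs (4.89 and 0.196 nt, 2.39 nt pooled), the share of 30 to 90 nt at 24 h within runs (2.36 and -4.55 percentage points, -1.09 pooled), and the same share at 48 h with equal weight per gene (3.52) and with bounds of 40 to 80 nt (-0.590), against 1.34 as reported. The cause was not tested. Leaving out 1 library kept the mean tail difference of the set at 0.616 to 4.16 nt at 24 h and -6.52 to -1.97 nt at 48 h. The number of members with more than 1 end site was 19 with a joining gap of 60 nt, 18 with a minimum of 10% per site and 14 of 25 with a mapping quality of at least 10 (27.9%, 26.8% and 28.3% of other genes), settings chosen after seeing the data. Depth limits most members: 11 of 42 could be tested for tails.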
